A study of Mus musculus with 10 samples.

Results

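Conventional CD4 T cells whose antigen receptor was found in 2 or more cells of a liver (expanded clonotypes) were compared with conventional CD4 T cells whose receptor was found once (single clonotypes). A barcode, which stands for 1 droplet and normally 1 cell, counted as conventional CD4 with at least 1 Cd4 UMI (unique molecular identifier, a counted RNA molecule), no Cd8a UMI and no Foxp3 UMI, together with a TRA and a TRB receptor contig. A clonotype was the V gene, J gene and CDR3 nucleotide sequence of the TRA and the TRB contig with the most UMIs, within 1 liver. Expression was compared among the barcodes with no Ccr7 UMI, which sets aside cells seen to carry RNA of the lymph node homing receptor of naive cells. Cells whose Ccr7 RNA was not caught stay in. In the 3 treated livers, 713 barcodes met these conditions and 649 remained after doublet removal, of 26229 kept barcodes in the whole series. Of these, 304 belonged to expanded and 345 to single clonotypes.

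The series holds 5 mouse livers with metastases of colorectal cancer origin, each with a 10x gene expression library and a T cell receptor library. The Control livers (11 and 25) had received a control LV (lentiviral vector), the IFNa livers (18 and 23) an LV for IFNa, a type I interferon, and the IFNa + aCTLA4 liver (22), called the combination here, IFNa together with treatment against CTLA-4. The comparison of expanded with single clonotypes used livers 18, 23 and 22, because the Control livers held 6 and 2 expanded barcodes. All livers carried metastases, so none shows T cells of a tumour-free liver. The cells were unstained viable cells of the dissociated tissue, and the labels used here give no strain, age, dose, time or promoter. The labels do not state that each liver is a separate animal, so p-values speak for these samples alone. Part of the spread between them may be technical.

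A T cell receptor is assembled once in each developing T cell from V, D and J segments, with bases added or removed where they join, so cells that share both chains descend as a rule from 1 cell that divided. Conventional CD4 cells help other immune cells through cytokines and surface ligands, and Foxp3-expressing regulatory CD4 cells restrain them. When a naive CD4 cell meets its antigen it divides, loses the transcription factors and homing receptors that keep it circulating through lymph nodes, and gains effector and, under lasting stimulation, inhibitory molecules.

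The receptors of the largest conventional CD4 clonotypes are shown because the comparison rests on counting identical copies of them. Each line gives a CDR3, the part of the chain that contacts peptide antigen, as deposited and 5′ to 3′. Capitals mark the bases that matched neither the start of the germline V gene nor the end of the germline J gene in GENCODE vM21 (GRCm38, the build called mm10 in the processing notes), so in TRB they include any D segment. The V and J genes lie in the Tra locus on chromosome 14 (52427928 to 54217901) and the Trb locus on chromosome 6 (40891229 to 41558452). A plus sign joins 2 V genes that the deposited annotation gives under 1 name.
Liver 18 clonotype 1 TRAV14N-3 TRAJ56: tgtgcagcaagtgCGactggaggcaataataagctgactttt
Liver 18 clonotype 1 TRBV12-2+TRBV13-2 TRBJ2-2: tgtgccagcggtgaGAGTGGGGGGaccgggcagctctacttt
Liver 18 clonotype 2 TRAV6-6 TRAJ6: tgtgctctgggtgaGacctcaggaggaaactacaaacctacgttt
Liver 18 clonotype 2 TRBV16 TRBJ2-7: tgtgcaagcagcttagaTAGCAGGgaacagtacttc
Liver 23 clonotype 1 TRAV9-2 TRAJ31: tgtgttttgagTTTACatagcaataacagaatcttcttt
Liver 23 clonotype 1 TRBV12-1 TRBJ2-1: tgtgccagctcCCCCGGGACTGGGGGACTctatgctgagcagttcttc
Liver 23 clonotype 2 TRAV7D-2 TRAJ50: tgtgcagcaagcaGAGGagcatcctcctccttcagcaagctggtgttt
Liver 23 clonotype 2 TRBV20 TRBJ2-7: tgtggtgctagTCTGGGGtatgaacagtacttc
Liver 22 clonotype 1 TRAV6-6 TRAJ9: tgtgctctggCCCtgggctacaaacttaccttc
Liver 22 clonotype 1 TRBV19 TRBJ1-4: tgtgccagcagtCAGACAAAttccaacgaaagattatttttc
Liver 22 clonotype 2 TRAV6-6 TRAJ22: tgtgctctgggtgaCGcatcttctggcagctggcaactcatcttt
Liver 22 clonotype 2 TRBV13-1 TRBJ2-1: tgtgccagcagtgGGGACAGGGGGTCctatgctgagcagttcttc
Over the 9 largest clonotypes, 3 from each liver, the TRA chains had 1 to 5 such bases and the TRB chains 7 to 18. Liver 18 clonotype 1 and liver 18 clonotype 2 held 4 conventional barcodes each, liver 23 clonotype 1 and clonotype 2 held 11 and 9, and liver 22 clonotype 1 and clonotype 2 held 18 and 17. The same 2 receptors of liver 18 were also found in 20 and 16 Foxp3-positive barcodes, whereas the other 7 of these 9 clonotypes had none. Clonotype 3 of liver 18 was 1 of 9 clonotypes tied at 2 barcodes, taken by alphabetical order.

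Conventional CD4 cells were mostly of single clonotypes in Control and more often of expanded ones in the treated livers. In the Control livers, 6 of 127 barcodes (4.72%, exact 95% binomial interval 1.75 to 10.0%) and 2 of 22 (9.09%, 1.12 to 29.2%) lay in expanded clonotypes. The IFNa livers held 26 of 149 (17.4%, 11.7 to 24.5%) and 54 of 142 (38.0%, 30.02 to 46.5%), and the combination held 246 of 538 (45.7%, 41.5 to 50.0%). Both IFNa livers lay above liver 11, the wide interval of liver 25 overlapped that of liver 18, and their own 2 shares differed by more than these intervals, which cover counting error only. No test between groups was made, since 2, 2 and 1 livers cannot reach 0.05 in an exact test.

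The largest clonotype had 2 barcodes in each Control liver, 4 and 11 in the IFNa livers and 18 in the combination. Because more barcodes give more repeats, the number of clonotypes expected among 127 barcodes was computed: 124.0 in liver 11, 115.6 in liver 18, 92.6 in liver 23 and 107.6 in liver 22. Liver 25 had too few barcodes for this. Among 22 barcodes, the number in liver 25, the expected clonotypes were 21.9 in liver 11 and 21.0 in liver 25. They were 21.6 in liver 18, 19.6 in liver 23 and 21.2 in liver 22, so liver 25 lay below livers 18 and 22 there. The chance that 2 barcodes of a liver shared a clonotype was 0.0375% in liver 11, 0.433% in liver 25, 0.190% in liver 18, 1.39% in liver 23 and 0.411% in liver 22. On this measure liver 23, not the combination, was the most clonal, with 4 of its 14 expanded clonotypes at 5 or more barcodes, against 11 of 72 in the combination and 0 of 11 in liver 18.

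**Figure D1:**
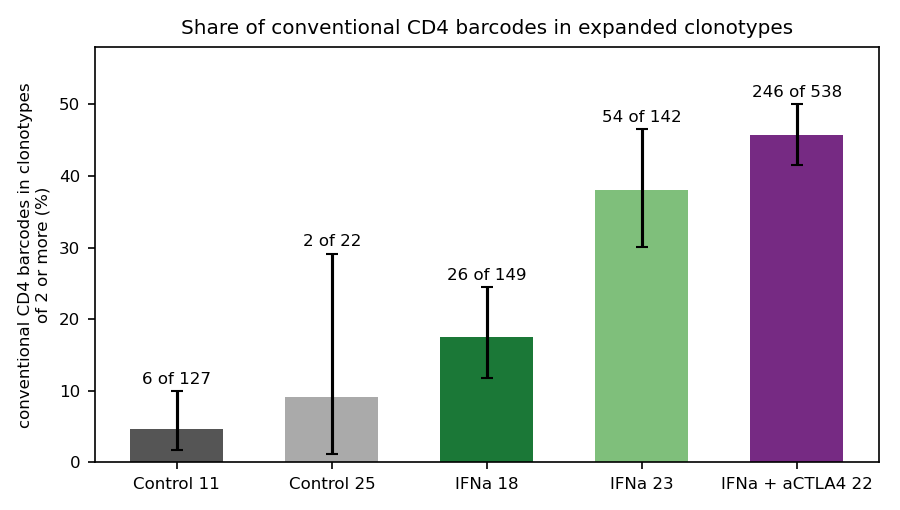
Share of conventional CD4 barcodes (%, all Ccr7 levels) that lay in clonotypes of 2 or more barcodes, by liver. Bars are 1 library each, lines the exact 95% binomial intervals, and the counts stand above them; the share runs from 4.72% in Control 11 to 45.7% in the combination liver.

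None of the 745 distinct TRA and TRB nucleotide pairs of the 5 livers occurred in 2 livers, and 1 of 736 TRB nucleotide sequences did. Of 727 TRB CDR3 sequences compared as translated in the deposited tables, 5 occurred in 2 or more livers, 3 of them with an expanded clonotype. No expanded clonotype shared its receptor with a CD8 barcode, and 3 single clonotypes of liver 22 did. In the combination liver, 7 of 357 TRB sequences came with different TRA sequences in 2 or more clonotypes, and 2 of 292 single barcodes carried the TRB of an expanded clonotype, so few single cells were members of an expanded clone split by its TRA chain. Mean TRB CDR3 length was 39.8 bases in expanded and 41.7 in single clonotypes of liver 18, 41.4 and 41.5 in liver 23, and 40.3 and 41.9 in liver 22, each with an SD between clonotypes of 3.72 to 4.23. TRBV13-1, 1 of 21 V genes seen and chosen here after its values were seen, was used by 10 of 72 expanded and 4 of 213 single clonotypes in liver 22, by 2 of 14 and 3 of 62 in liver 23, and by 0 of 11 and 4 of 70 in liver 18. The invariant NKT receptor pair TRAV11 with TRAJ18 was carried by 3 expanded barcodes, all in liver 22, and by 11 single barcodes over the 3 livers.

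Barcodes of expanded clonotypes more often had no Ccr7 UMI: 88.5, 92.6 and 93.9% of expanded against 56.9, 70.5 and 72.9% of single barcodes in livers 18, 23 and 22 had none. The Ccr7-zero cells compared below numbered 23 expanded and 70 single in liver 18, 50 and 62 in liver 23, and 231 and 213 in liver 22. Median UMI counts per barcode were 4550 and 5499 in liver 18, 6390 and 6009 in liver 23, and 6152 and 5725 in liver 22, so the expanded cells of liver 18 were the shallowest. Their sum of 111579 UMIs was also the smallest of the 6 sums, the largest being 1623921.

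All 12 alpha-beta T cell markers (Cd3d, Trac, Lck and others) were detected in each of the 6 sums, at a summed 6289 to 7969 CPM (the UMIs of a gene divided by all UMIs of the sum and scaled to the same total). Cd8b1, which the rule did not use, stood at 0 to 39.7 CPM. Markers of other cells differed between the sums. The 12 dendritic cell markers, which include the MHC class II genes, summed to 4621 CPM in the single and 798 in the expanded cells of liver 18, to 2541 and 2999 in liver 23 and to 928 and 961 in liver 22. The 5 erythroid markers summed to 397 CPM in the single and 8.93 in the expanded cells of liver 23. Their part in the results was not tested. Libraries shared 4 to 83 barcode sequences per pair, at most 3 of them with paired receptors in both, and none with the same TRB.

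Tcf7 and Ly6c2, genes of naive, memory and recirculating T cells, fell in expanded clonotypes. No gene was called higher there across the 3 livers. With the liver as a block, 6393 genes were tested by edgeR's quasi-likelihood test on the UMI sums. Of these, 4 (0.0626%) fell in expanded clonotypes at a Benjamini-Hochberg adjusted p under 0.05 (Tcf7, Ly6c2, Il4 and Il1b). None (0%) was called higher, while 248 genes (3.88%) were higher and 295 (4.61%) lower at an unadjusted p under 0.05. DESeq2 called 0 higher and 7 lower.

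Tcf7, a transcription factor of naive and stem-like memory T cells (chromosome 11, 52252371 to 52283014, GRCm38), stood at 352, 299 and 366 CPM in the single cells of livers 18, 23 and 22. In the expanded cells it stood at 170, 68.4 and 151 CPM, so every expanded sum lay below every single sum, as for 415 of all genes (6.49%). The log2 difference of Tcf7 was -1.45 ± 0.20 (SE, edgeR adjusted p = 0.0412, n = 3 livers). Levels here and below are scaled by TMM, which evens out composition between sums, and in such sums fewer positive cells and less RNA per cell cannot be told apart.

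Ly6c2, a surface protein of effector and central memory T cells and of monocytes (chromosome 15, 75108158 to 75111970), stood at 1198, 650 and 766 CPM in single and at 500, 155 and 310 in expanded cells of livers 18, 23 and 22. Its log2 difference was -1.51 ± 0.17 (edgeR adjusted p = 0.0226), again without overlap. Ly6c2 has a near-identical neighbour, Ly6c1, with which its reads may be divided. Both Tcf7 and Ly6c2 were lower in expanded cells under all 20 alternative settings reported, and Tcf7 passed the threshold in 14 and Ly6c2 in 13 of them. These settings share most of their barcodes, and productive contigs only repeats the main fit. With doublets kept, the Ly6c2 difference was -0.57 (edgeR adjusted p = 0.478) and that of Tcf7 still passed. Neither passed with barcodes carrying 2 or more UMIs of other cell types' markers left out (edgeR adjusted p = 0.133 for each), without liver 22 (0.385 for each), or without the block.

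The calls for Il4 and Il1b rested on single droplets. Il4, the Th2 and follicular helper cytokine (chromosome 11, 53602982 to 53618669), had 40, 16 and 45 UMIs in the single cells of livers 18, 23 and 22, of which 36, 12 and 32 came from 1 barcode each. Expanded cells had 0, 0 and 3 Il4 UMIs, a ratio of 0.0331 to the single cells per UMI sequenced (exact 95% interval 0.00671 to 0.0994, counting error only). That interval treats the UMIs of a barcode as independent and so is too narrow. Il4 was found in 3, 4 and 10 single and in 0, 0 and 2 expanded barcodes of livers 18, 23 and 22. Il1b, an inflammatory cytokine made mainly by myeloid cells (chromosome 2, 129364570 to 129371139), had 87, 122 and 161 UMIs in single cells, of which 84, 119 and 150 came from 1 barcode each, against 0, 25 and 14 in expanded cells. The log2 difference was -4.53 ± 0.56 for Il4 and -2.96 ± 0.38 for Il1b (edgeR adjusted p = 0.0253 for each). With doublets kept these were -0.15 and -0.25. With each gene summed without its highest barcode in each library and class, an alternative chosen after seeing the data, neither gene had enough counts to be tested.

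In that trimmed comparison 8 of 5669 genes (0.141%) fell and 6 (0.106%) rose. The genes that fell included Tcf7, Ly6c2, Il7r, Scml4 and Nsg2. The 6 that rose were Nr4a2, Nkg7, Gpr65, AW112010, Ccl4 and Igfbp7, the last 2 of which are outside the rule for named genes and were chosen after their values were seen.

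Most tested naive T cell genes were lower in expanded cells. Of its 16 tested members, 1 (Tcf7) was called lower, 12 were lower at an unadjusted p under 0.05 and 10 were lower in 3 of 3 livers, against 16.7% of all genes lower in 3 of 3 livers (14.4% were higher in 3 of 3). At an unadjusted p under 0.05, 4.61% of all genes were lower. The median difference of the naive genes was -1.16 on the log2 scale (all genes tested, -0.00). A Ccr7 count of 0 may leave naive cells in either class, and their part was not tested. Il7r, the receptor for the survival cytokine IL-7, stood at 504, 383 and 493 CPM in single and 358, 103 and 185 in expanded cells of livers 18, 23 and 22 (log2 difference -1.29 ± 0.22, edgeR adjusted p = 0.0980). The groups did not overlap for Il7r. The log2 differences were -0.92 ± 0.23 for Lef1, a partner of Tcf7 (edgeR adjusted p = 0.258), and -2.51 ± 0.43 for Nsg2, a marker of recent and naive T cells (edgeR adjusted p = 0.0980). Scml4, a Polycomb-related gene of quiescent lymphocytes, stood at 150, 146 and 142 CPM in single and 37.7, 37.3 and 64.6 CPM in expanded cells (log2 difference -1.44 ± 0.23, edgeR adjusted p = 0.0954).

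Genes of exit from tissue into lymph and blood differed between livers. Of 6 tested, 5 were lower at an unadjusted p under 0.05 (4.61% of all genes) and none was called. S1pr1, the receptor that draws T cells into lymph, stood at 148 and 207 CPM in single against 9.33 and 90.5 in expanded cells of livers 23 and 22, but at 150 against 179 in liver 18. Klf2, the transcription factor that drives S1pr1, stood at 299 and 348 against 34.2 and 153 in livers 23 and 22, and at 524 against 471 in liver 18. The list's median log2 ratio (5 CPM added to each level) was -2.23 in liver 23, -1.03 in liver 22 and 0.29 in liver 18. Livers 23 and 22 alone, without liver 18, gave calls for both genes (log2 difference -1.63, edgeR adjusted p = 1.91e-06 for S1pr1, and -1.68 and 8.81e-09 for Klf2).

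**Figure D2:**
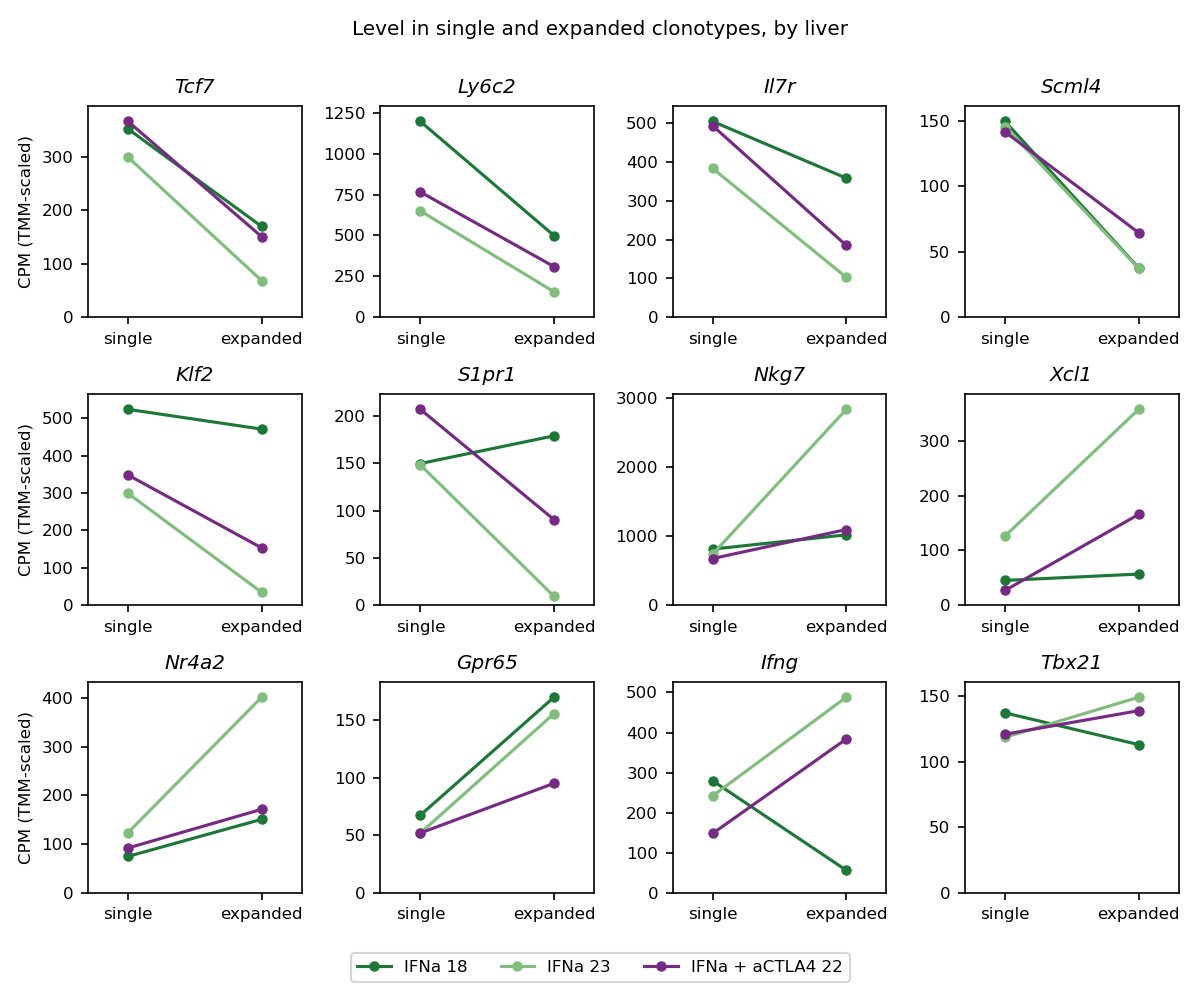
TMM-scaled CPM of 12 genes in single and expanded conventional CD4 clonotypes, 1 line per liver, each panel with its own axis from 0. Tcf7, Ly6c2, Il7r and Scml4 are lower in expanded cells along all 3 lines, without overlap, whereas Ifng, S1pr1 and Tbx21 run another way in IFNa 18 than in the other 2 livers.

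Effector genes went both ways. Of 16 cytotoxic effectors tested, 6 were higher and 1 lower at an unadjusted p under 0.05, 4 were higher and 2 lower in 3 of 3 livers, and none was called. The shares of all genes were 3.88% higher and 4.61% lower at that p, and 14.4% higher and 16.7% lower in 3 of 3 livers. Of 11 cytokines 2 were higher and 1 lower at that p, the lower one being Il4, which was called. The median log2 ratio of the cytotoxic list was -0.09, 0.37 and 0.36 in livers 18, 23 and 22, and that of the cytokines -0.83, 0.37 and 0.39. Nkg7, a granule membrane protein of cytotoxic cells, stood at 1018, 2838 and 1095 CPM in expanded against 811, 739 and 674 in single cells of livers 18, 23 and 22 (log2 difference 1.01 ± 0.24, edgeR adjusted p = 0.227). Every expanded sum lay above every single sum, which held for 324 of all genes (5.07%). The expanded sum of liver 23 held 913 Nkg7 UMIs. The 3 largest clonotypes of liver 23, counted at all Ccr7 levels, held 335, 278 and 131, so few clonotypes weighed much there. Xcl1, the chemokine that attracts cross-presenting dendritic cells, stood at 56.6, 358 and 165 against 44.9, 126 and 26.7 CPM (1.85 ± 0.30, edgeR adjusted p = 0.0954). In liver 22, 127 of its 256 UMIs in expanded cells came from 1 barcode. Without the highest barcode of each sum the Xcl1 difference was 1.87 (edgeR adjusted p = 0.0540).

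Ccl1, the ligand of Ccr8, had 241 of its 361 UMIs in expanded cells of liver 22 in 1 barcode (log2 difference 1.99 ± 0.37, edgeR adjusted p = 0.102). Without the highest barcode of each sum its difference was 2.06 (edgeR adjusted p = 0.0540). Ccr8 itself, a receptor of skin-homing, Th2 and tumour-infiltrating regulatory cells, stood at 563 and 376 against 304 and 192 CPM in livers 23 and 22 and at 132 against 130 in liver 18. Ccl5, an attractant of T cells and macrophages, stood at 4299, 1082 and 1536 against 2085, 986 and 1071 CPM (0.57 ± 0.14, edgeR adjusted p = 0.254). Gzmb, the killing protease granzyme B, stood at 217, 43.5 and 99.5 CPM in expanded and 145, 198 and 91.3 in single cells, and its log2 difference of -0.34 ± 0.37 reversed under 2 alternatives.

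Of 15 receptor signalling response genes, 5 were higher and 1 lower at an unadjusted p under 0.05, 5 were higher and 3 lower in 3 of 3 livers, and none was called. Of all genes tested, 3.88% were higher and 4.61% lower at that p, and 14.4% were higher and 16.7% lower in 3 of 3 livers. The list's median log2 ratio was -0.29 in liver 18, 0.31 in liver 23 and 0.40 in liver 22. Egr1, an early transcription factor of receptor signalling, had a log2 difference of -0.75 ± 0.21 (edgeR adjusted p = 0.312). Nr4a2, an orphan nuclear receptor induced by receptor signalling, stood at 151, 401 and 171 CPM in expanded against 74.9, 124 and 92.1 in single cells of livers 18, 23 and 22 (1.20 ± 0.20, edgeR adjusted p = 0.0980), without overlap. Outside that list, Gpr65, an acid-sensing receptor, stood at 170, 155 and 95.0 against 67.4, 51.9 and 52.0 CPM (1.17 ± 0.22, edgeR adjusted p = 0.103), also without overlap. AW112010, an interferon-inducible transcript also outside it, stood at 2394, 2699 and 2284 against 1518, 1718 and 1833 CPM (0.54 ± 0.09, edgeR adjusted p = 0.0980).

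Of 12 inhibitory receptor and exhaustion genes tested, 5 were higher and 1 lower at an unadjusted p under 0.05 (3.88 and 4.61% of all genes). Their median was 0.49 on the log2 scale. Ctla4 and Tigit, inhibitory receptors that regulatory cells also carry, had log2 differences of 0.54 ± 0.17 and 0.68 ± 0.18 (edgeR adjusted p = 0.402 and 0.277) without overlap between the groups. Without clonotypes that also held a Foxp3-positive barcode, the Ctla4 difference was 0.07. Lag3, which binds MHC class II, stood at 718 and 333 against 331 and 281 CPM in livers 23 and 22 and at 141 against 97.4 in liver 18 (0.63 ± 0.19, edgeR adjusted p = 0.399). Pdcd1, which encodes PD-1, and Tox, a transcription factor of exhausted cells, were higher in expanded cells of livers 23 and 22 but not of liver 18, where Pdcd1 stood at 207 against 292 CPM and Tox at 330 against 419. Btla, the inhibitory receptor that was lower, had a log2 difference of -0.90 ± 0.26 (edgeR adjusted p = 0.339).

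Liver 18 differed from the other 2 livers in what its expanded class held. Of its 23 expanded barcodes, 8 (34.8%) belonged to clonotypes that also held a Foxp3-positive barcode, against 2 of 50 (4.0%) in liver 23 and 2 of 231 (0.866%) in liver 22. Among single barcodes these were 4 of 70, 5 of 62 and 5 of 213. The 8 barcodes made up the clonotypes whose receptors are printed first above. The 26430 UMIs of its clonotype 1 and 18325 of clonotype 2 included 31 and 27 UMIs of Ikzf2 (the regulatory factor Helios), 48 and 30 of Ctla4 and 32 and 29 of Tnfrsf4 (OX40), each in all 4 barcodes, and no UMI of Ifng or Tcf7. A Foxp3 count of 0 in a droplet does not show that the cell lacked Foxp3.

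Without liver 18, 103 of 8587 genes (1.2%) rose and 130 (1.51%) fell in expanded cells, among them all 4 genes called in 3 livers. That comparison rests on livers 23 and 22 alone, with fewer residual degrees of freedom than the 2 of the main fit. It also called Il4 and Il1b (edgeR adjusted p = 5.71e-07 and 1.45e-12), whose UMIs came mostly from single droplets. A low p there therefore does not set such genes apart. Of the naive list 9 of 18 fell, of the inhibitory and exhaustion list 5 of 13 rose and 1 fell, and of the cytotoxic list 6 of 17 rose and 1 fell. Ifng, the Th1 cytokine interferon-gamma, stood at 488 and 384 CPM in expanded against 242 and 149 in single cells of livers 23 and 22 (log2 difference 1.20, edgeR adjusted p = 4.03e-07). In liver 18 it stood at 280 CPM in single and 56.6 in expanded cells, the opposite order, so over 3 livers its difference was 0.63 ± 0.41 (edgeR adjusted p = 0.749). Pdcd1, Tox and Cxcr6 also rose without liver 18 (0.68, 0.96 and 0.67, edgeR adjusted p = 0.00125, 1.24e-06 and 0.000417).

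Removing only the clonotypes with a Foxp3-positive barcode, in all 3 livers, left 15 expanded barcodes in liver 18 and did not give those calls: 0 of 6093 genes (0%) were higher and 2 (0.0328%) lower by edgeR, with 174 (2.86%) and 200 (3.28%) at an unadjusted p under 0.05. Both of the lower genes, Il4 and Il1b, are those carried by single droplets, and the differences of Tcf7 (-1.32) and Ly6c2 (-1.37) did not pass there (edgeR adjusted p = 0.243 and 0.197). Both alternatives were fitted with earlier results known, and the second was chosen after seeing the data.

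**Figure D3:**
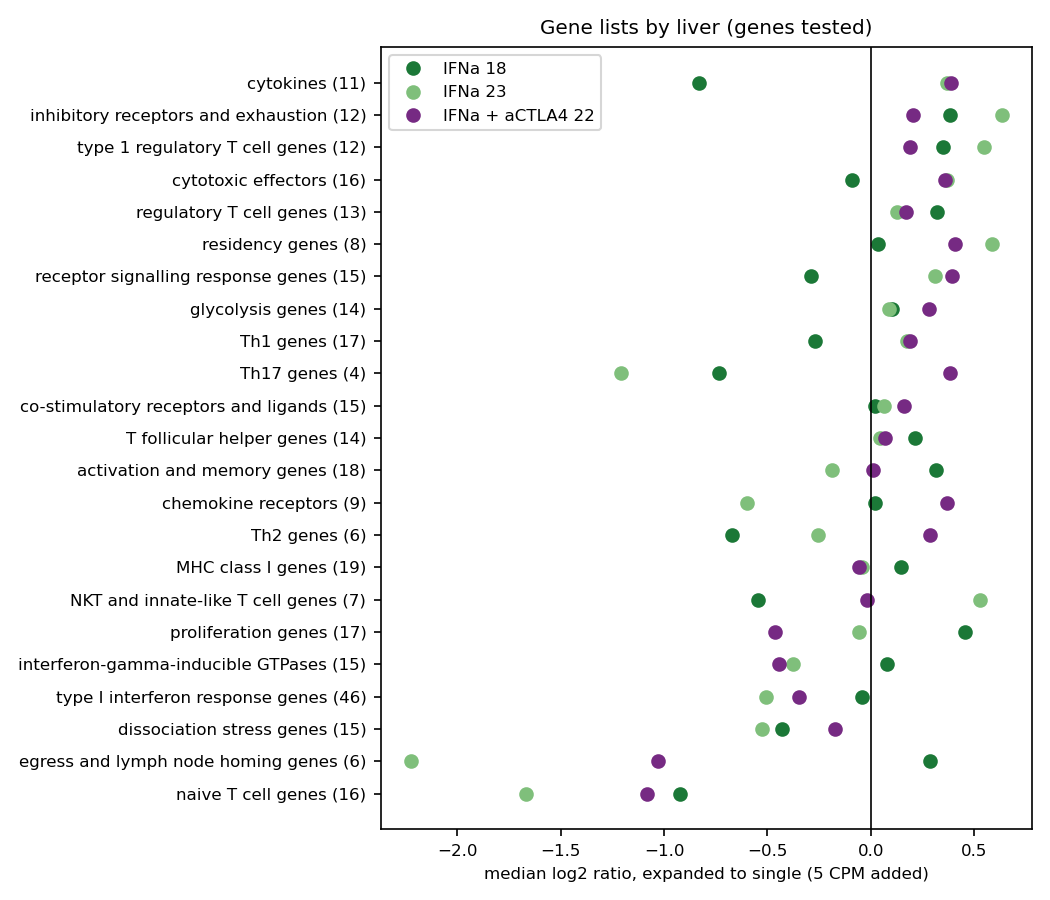
Median log2 ratio of expanded to single clonotypes (5 CPM added to each level) for 23 gene lists, 1 point per liver, with the number of genes tested in parentheses. Naive genes lie below 0 in all 3 livers, while cytokines, cytotoxic effectors and Th1 genes lie below 0 in IFNa 18 and above 0 in the other 2.

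Genes of the helper lineages gave few calls. Of 17 Th1 genes tested, 1 (Ly6c2) was called lower, and 4 were higher and 2 lower at an unadjusted p under 0.05. For all genes these shares were 3.88 and 4.61%. The median of the Th1 genes was 0.15. Tbx21, the T-bet master regulator of Th1 cells, stood at 113, 149 and 139 CPM in expanded and 137, 119 and 121 in single cells (0.15 ± 0.18, edgeR adjusted p = 0.906). Cxcr3, the Th1 chemokine receptor for interferon-induced ligands, stood at 443, 134 and 254 CPM in expanded against 255, 262 and 402 in single cells, and had a log2 difference of -0.78 without liver 18 (edgeR adjusted p = 0.00336). Gata3, the Th2 regulator, had a log2 difference of -0.49 ± 0.19 (edgeR adjusted p = 0.478) and Bcl6, the follicular helper regulator, one of -0.20 ± 0.36 (edgeR adjusted p = 0.962). Il21, the cytokine of follicular and peripheral helper cells, stood at 0, 83.9 and 63.3 CPM in expanded and 17.5, 17.3 and 47.5 in single cells.

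Type 1 regulatory cells are Foxp3-negative CD4 cells that make IL-10. Of 12 genes of their list, 5 were higher at an unadjusted p under 0.05 (3.88% of all genes), with none called. The genes that define type 1 regulatory cells had few UMIs: Il10 had 2, 2 and 3 UMIs in the expanded and 13, 11 and 4 in the single cells of livers 18, 23 and 22, and Eomes 1, 1 and 7 against 2, 0 and 9. Gzmk stood at 349, 18.7 and 57.5 CPM in expanded and 120, 22.2 and 83.9 in single cells, and 33 of its 37 UMIs in the expanded cells of liver 18 came from 1 barcode. Co-stimulatory receptors differed little as a list (median 0.11 over 15 genes), with log2 differences of 0.49 ± 0.15 for Tnfrsf4 and 0.46 ± 0.14 for Tnfrsf9 (4-1BB) that did not pass (edgeR adjusted p = 0.382 and 0.398). Without clonotypes that also held a Foxp3-positive barcode these were 0.25 and 0.18.

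Genes of homing to and retention in tissue gave no call over 3 livers. Cxcr6, the receptor of liver-resident and tumour-resident T cells, stood at 471, 986 and 805 CPM in expanded and 414, 576 and 531 in single cells of livers 18, 23 and 22 (0.55 ± 0.14, edgeR adjusted p = 0.263). Itgb7, a subunit of the gut-homing integrin, stood at 481, 90.2 and 207 against 514, 398 and 381 CPM (-0.98 ± 0.28, edgeR adjusted p = 0.339). Cx3cr1, a receptor of effector cells that patrol vessels, stood at 127 and 69.8 against 39.6 and 30.4 CPM in livers 23 and 22, and at 37.7 against 44.9 in liver 18. Cd69, a retention and early activation marker, had a log2 difference of -0.35 ± 0.17 (edgeR adjusted p = 0.641).

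Type I interferon response genes, the genes that IFNa induces through its receptor, were more often lower than higher in expanded cells, without a call over 3 livers. Of 46 tested, 15 were lower and 0 higher at an unadjusted p under 0.05, 21 were lower in 3 of 3 livers and none higher in 3 of 3, and the median was -0.30. Among all genes, 4.61% were lower and 3.88% higher at that p, and 16.7% were lower and 14.4% higher in 3 of 3. Oasl2, an antiviral protein, stood at 151, 96.4 and 87.3 CPM in expanded and 177, 195 and 163 in single cells (-0.80 ± 0.19, edgeR adjusted p = 0.227). Isg15, a ubiquitin-like protein, stood at 811, 410 and 529 against 874, 722 and 756 CPM (-0.49 ± 0.15, edgeR adjusted p = 0.383). Without liver 18, 10 of the 46 fell, Isg15 and Ifit3 among them (-0.65 and -0.77, edgeR adjusted p = 0.00164 and 0.00327). The list's median log2 ratio was -0.04 in liver 18, -0.50 in liver 23 and -0.35 in liver 22. Of 15 interferon-gamma-inducible GTPases 5 were lower at an unadjusted p under 0.05, for example Igtp (-0.59 ± 0.17, edgeR adjusted p = 0.339). In the single cells of the Control livers, unscaled Isg15 was 177 and 210 CPM, against 812, 683 and 704 in those of livers 18, 23 and 22.

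Division genes gave no common picture. Mcm6, a replication helicase subunit, stood at 245, 183 and 204 CPM in expanded and 77.4, 76.6 and 137 in single cells, without overlap (0.98 ± 0.22, edgeR adjusted p = 0.199). Ube2c, a gene of mitosis, had a log2 difference of -2.12 ± 0.51 (edgeR adjusted p = 0.229), and 42 of its 43 UMIs in the single cells of liver 23 came from 1 barcode. Of 15 dissociation stress genes 5 were lower at an unadjusted p under 0.05 (4.61% of all genes), among them Junb (-0.59 ± 0.13, edgeR adjusted p = 0.180).

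The largest clonotypes differed in the genes they carried. In liver 23, clonotype 3 (7 barcodes) held 242 Ccl4, 97 Ccl3 and 56 Xcl1 UMIs, while clonotype 1 (11 barcodes) held 37, 38 and 2. In clonotype 3, 148 of the Ccl4, 50 of the Ccl3 and 35 of the Xcl1 UMIs came from 1 barcode for each gene. All 3 of the largest clonotypes of liver 23 carried Nkg7, Cxcr6, Lag3 and Tox in nearly all barcodes and no Tcf7 UMI. In liver 22, clonotype 2 (17 barcodes) held 543 Ccl5, 97 Ccl4 and 76 Ifng UMIs, against 126, 3 and 15 in clonotype 1 (18 barcodes), whose 171 Tnfrsf4 UMIs exceeded the 115 of clonotype 2. In clonotype 2, 57 of the Ifng and 63 of the Ccl4 UMIs came from 1 barcode for each gene, and Ifng was found in 7 of its 17 barcodes against 6 of 18 in clonotype 1. Tcf7 UMIs numbered 10, 5 and 13 in the 3 largest clonotypes of liver 22. None of these 9 clonotypes held an Eomes or Il4 UMI, and Il10 was found in 3 barcodes in all, 2 of clonotype 1 in liver 18 and 1 of clonotype 2 in liver 23.

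**Figure D4:**
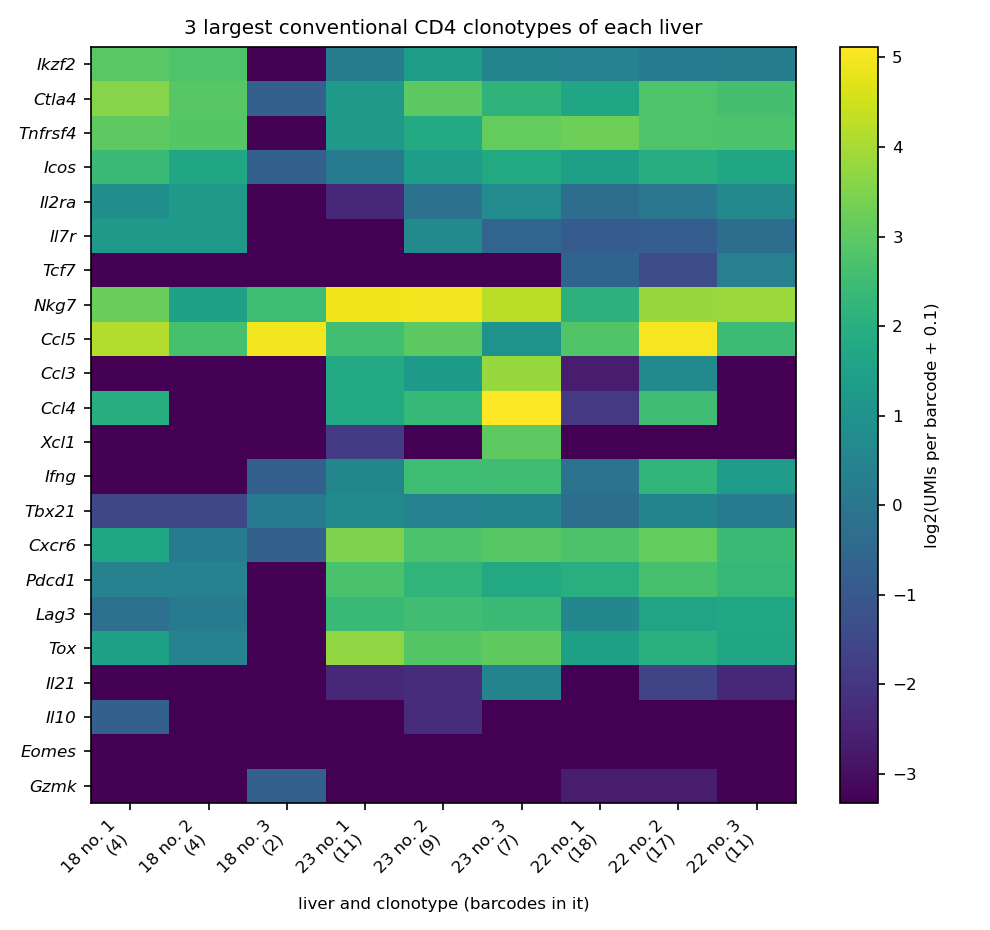
UMIs per barcode, as log2 of the value plus 0.1, of 22 genes in the 3 largest conventional CD4 clonotypes of each of 3 livers, with their barcodes in parentheses. Clonotype 3 of liver 18 is 1 of 9 tied at 2 barcodes. Ikzf2 is highest in the first 2 clonotypes of liver 18 (7.75 and 6.75 UMIs per barcode), which lack Ifng, and Cxcr6, Pdcd1 and Lag3 are higher in each clonotype of livers 23 and 22 than in the 3 of liver 18.

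Whether expansion goes with another change in CD4 than in CD8 cells was tested as an interaction over 12 sums. The CD8 barcodes (at least 1 Cd8a UMI, no Cd4 or Foxp3 UMI, no Ccr7 UMI) numbered 1499 and were classed in the same way. Expanded and single CD8 barcodes numbered 44 and 51 in liver 18, 236 and 73 in liver 23, and 903 and 192 in liver 22. Without the largest CD8 clonotype of each liver, 34, 109 and 737 expanded ones were left. Without clonotypes that also held a Foxp3-positive barcode, 38, 88 and 365 were left. Of 7509 genes, the signed log2 change from single to expanded cells was higher in CD4 than in CD8 cells for 14 (0.186%) and lower for 40 (0.533%). The naive genes Tcf7 and Lef1 had the more negative change in CD8 cells. For Tcf7 the log2 difference in CD4 cells exceeded that in CD8 cells by 1.56 ± 0.30 (edgeR adjusted p = 0.0319), and for Lef1 by 1.71 ± 0.35 (edgeR adjusted p = 0.0362): Tcf7 stood at 22.5, 31.2 and 68.7 CPM in expanded CD8 cells and at 337, 298 and 423 in single ones. St6gal1, a sialyltransferase, differed by 3.03 ± 0.37 (edgeR adjusted p = 0.00142), and Pde2a, a cyclic nucleotide phosphodiesterase, by 2.68 ± 0.44 (edgeR adjusted p = 0.0116). Fgf13 differed by 2.25 ± 0.39 (edgeR adjusted p = 0.0141). Airn, a non-coding RNA antisense to Igf2r, went opposite ways: 53.8, 96.1 and 37.3 CPM in expanded against 25.8, 44.2 and 20.3 in single CD4 cells, and 36.6, 52.1 and 40.7 against 87.5, 70.4 and 78.9 in CD8 cells (1.81 ± 0.31, edgeR adjusted p = 0.0141). Whether the counting used strand is not given in the sources used here, so reads of Airn and Igf2r may not be told apart.

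Lag3, Gzmb and Cxcr6 had the higher change in CD8 cells. Of 18 cytotoxic effectors tested, only Gzmb and Gzmc were called in this comparison. Lag3 stood at 803, 738 and 603 CPM in expanded and 111, 176 and 125 in single CD8 cells, and its change in CD4 minus that in CD8 cells was negative (-1.72 ± 0.26, edgeR adjusted p = 0.00639). Gzmb stood at 1741, 2267 and 1220 against 568, 697 and 514.5 CPM in CD8 cells (-1.85 ± 0.39, edgeR adjusted p = 0.0483), and Cxcr6 differed by -0.99 ± 0.20 (edgeR adjusted p = 0.0338). Cd40lg, the helper ligand that activates B cells and dendritic cells, differed by 2.11 ± 0.43 (edgeR adjusted p = 0.0382), but CD8 cells held only 37 expanded and 39 single UMIs of it. Leaving out barcodes with 2 or more UMIs of other cell types' markers left 1 called gene, and leaving out liver 22 left 11. With each gene summed without its highest barcode, 29 of 6983 genes (0.415%) lay above and 108 (1.55%) below.

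The 5 genes with the largest differences below CD8 had few UMIs in expanded CD4 cells (0 to 10 in all), and for 4 of them, all but Cxcl9, 1 barcode held most UMIs of the expanded CD8 cells. Ighv1-69 and Igkv1-110, antibody genes of plasma cells, had 2366 of 2371 and 7269 of 7300 UMIs of the expanded CD8 cells of liver 22 in 1 barcode. Hba-a1, a haemoglobin gene whose near-identical copy Hba-a2 may share its reads, had 885 of 887 UMIs of the expanded CD8 cells of liver 23 in 1 barcode. Gzmc, a granzyme of strongly activated killer cells, had 76 of 76 UMIs of single CD4 cells of liver 23 in 1 barcode, and 1690 UMIs in expanded against 81 in single CD8 cells, the former in 10, 25 and 27 barcodes of livers 18, 23 and 22, with 991 of the 1431 UMIs of liver 23 in 1. Gzmc passed in 17 of 18 alternatives. Cxcl9, an interferon-gamma-induced chemokine mainly of myeloid cells, had 33 of its 34 UMIs in single CD4 cells of liver 22 in 1 barcode, and in expanded CD8 cells its UMIs came from 1, 13 and 23 barcodes.

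**Figure D5:**
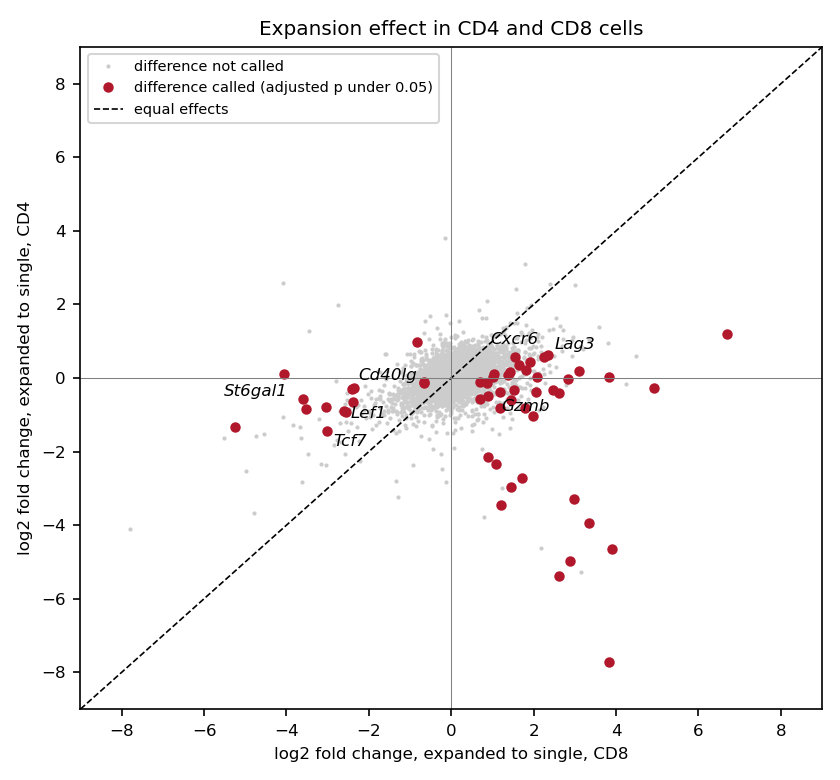
Log2 fold change of expanded to single clonotypes in CD8 (horizontal) and CD4 cells (vertical), 1 point per gene of 7509 tested, with the 54 genes whose 2 changes differed at an edgeR adjusted p under 0.05 in red. Tcf7, Lef1 and St6gal1 lie above the dashed line of equal effects on the left, and Lag3, Cxcr6 and Gzmb below it on the right.

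In the Control livers too few cells were expanded for a comparison of their own, and liver 11 entered 1 alternative setting only. The 6 expanded barcodes of liver 11 held 36179 UMIs, with unscaled levels of 193 CPM for Tcf7 and 498 for Nkg7, against 445 and 317 in its 55 single barcodes. Unscaled Ly6c2 stood at 29.5 CPM in the single cells of liver 11 and at 1607 in the 12 of liver 25, where 106 of 161 UMIs came from 1 barcode, against 1113, 615 and 714 in those of livers 18, 23 and 22, so the Control livers lay on both sides of the treated ones.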

How the data were processed

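Gene expression and T cell receptor libraries of 5 livers were used. The deposited matrices give whole UMI counts, unnormalised, and the deposited receptor tables list contigs with their UMI counts. The submitters' processing notes name Cell Ranger 7.0.1 and mm10. The labels' protocol names a 3' kit, and the receptor chemistry is not given in the sources used here.

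Barcodes under 200 genes or over 15% mitochondrial UMIs were set aside, and those with the highest simulated-doublet scores were removed, 0.8% per 1000 barcodes. All contigs were productive. Library totals ran from 10464216 to 69856071 UMIs. UMI counts were summed per liver and class and tested with edgeR 4.0.16 (quasi-likelihood test, filterByExpr, TMM, Benjamini-Hochberg over all genes tested, threshold 0.05). Receptor segment genes, Cd4, Cd8a, Foxp3 and Ccr7 were left out of the tests because the rule uses them. The standard error was derived from the log2 difference and its F statistic, with 2 residual degrees of freedom. The liver was a block: both sums of a liver come from the same library, and their deviations from the class means correlated at 0.195, 0.316 and 0.224 over 3861 genes.

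The members and lists were chosen with earlier results of these data known. Named genes were up to 15 each way with an adjusted p under 0.05, at least 20 CPM and one direction in 3 livers (the 5 of lowest p where fewer than 5 passed), up to 4 per list, a panel of 41 genes (some left out for length), up to 5 each way for the CD4 and CD8 difference, and the 3 largest clonotypes per liver. Alternatives covered normalisation (RLE), DESeq2 1.42.0, the low-count filter, the block, each liver, doublets, contigs, the clonotype definition and Ccr7. On simulated data for the expanded and single comparison (4533 genes), 79% of 2-fold and 100% of 4-fold changes were recovered, with 4.79% false calls. For the CD4 and CD8 difference (4390 genes) 50% and 97% were recovered. The simulation used its own low-count filter, gave every gene the same dispersion and drew each sum independently. It held no genes carried by single barcodes, so these rates do not cover genes such as Il4 and Il1b. Some genes of the named panel, and 1 alternative that sets cells aside by such a gene, are not reported here.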

Additional observations from a re-analysis of the deposited data

Results flagged for a closer look

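The expansion effect differed between CD4 and CD8 cells by a test of the interaction for 14 genes above and 40 below. Genes above included St6gal1 (3.03), Pde2a (2.68), Fgf13 (2.25), Cd40lg (2.11), Airn (1.81), Lef1 (1.71) and Tcf7 (1.56), as CD4 minus CD8 differences of the log2 change. The genes below included Lag3 (-1.72), Gzmb (-1.85) and Cxcr6 (-0.99). Ighv1-69 (-11.56), Hba-a1 (-8.55), Gzmc (-8.00), Igkv1-110 (-7.28) and Cxcl9 (-6.27) had 0, 2, 2, 10 and 5 UMIs in all expanded CD4 cells, so the sizes of these fitted differences rest on few UMIs. With each gene summed without its highest barcode, a setting chosen after seeing the data, none of these 5 had enough counts to be tested. There Tcf7, Lef1, Lag3, Cxcr6 and Gzmb kept their direction and passed (edgeR adjusted p = 0.0103, 0.00759, 0.00294, 0.0103 and 0.00214). They kept their direction in all 19 alternatives, of which Lag3 passed in 16, Tcf7, Lef1 and Cxcr6 in 10 each and Gzmb in 9. With doublets kept only Lag3 passed among them. None of them passed with barcodes carrying other cells' markers left out, without liver 22 or without the block. Cd40lg, summed without its highest barcode, kept its direction (1.71) but did not pass (edgeR adjusted p = 0.0710), and it passed in 8 of 19 alternatives. St6gal1, Pde2a, Fgf13 and Airn passed in 14, 13, 11 and 13 of 19.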

How the results depend on the processing

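Called genes, higher and lower in expanded CD4 cells, were 0 and 4. They were 0 and 2 with doublets kept, 3 and 7 without multi-contig barcodes, 0 and 1 without barcodes with other cells' markers (the 1 was Il7r), 1 and 8 with expanded at 3 or more barcodes, 5 and 11 with size over all barcodes, 2 and 8 without the largest clonotypes, 72 and 56 with Ccr7 not used, 6 and 8 without each gene's highest barcode, 0 and 2 without clonotypes with Foxp3, 1 and 4 with RLE, 0 and 7 with DESeq2, and 71 and 101 with no filter. With Control liver 11 added there were 0 and 6 of 5958 genes, 3 of them among the 4 of the main fit. With no replicate block there were 0 and 0 (378 at an unadjusted p under 0.05). Leaving out a liver gave 0 to 103 higher and 0 to 130 lower genes, 103 and 130 of them without liver 18, 4 and 6 without liver 23 and 0 and 0 without liver 22 (340 at an unadjusted p under 0.05).

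The 54 genes of the CD4 and CD8 difference became 1 without other cells' markers, 15 with size over all barcodes, 32 without the largest clonotypes, 118 with Ccr7 not used, 23 without clonotypes with Foxp3, 137 without the highest barcode, 340 with no filter, 1 with no replicate block, and 11 to 115 without a liver (115 without 18, 89 without 23, 11 without 22). With doublets kept 49 genes were called, 30 of them among the 54. DESeq2 called 53 genes, 22 of them among the 54. With expanded at 3 or more, shares of expanded barcodes were 0, 0, 6.11, 29.0 and 37.1% in livers 11, 25, 18, 23 and 22. The causes were not tested, beyond the fewer barcodes or genes some settings use. Settings without clonotypes with Foxp3, without the highest barcode and by TRB alone were chosen after seeing the data.

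Of 56 named genes, 49 kept their direction throughout. Reversed log2 differences, none past the threshold, were Tbx21 -0.0012 and Bcl6 0.089 with doublets kept, Bcl6 0.0013 and Ikzf2 0.080 with Ccr7 not used, Gzmb 0.11, Gzmk -0.050 and Ikzf2 0.61 with size over all barcodes, Gzmk -1.03 and Ikzf2 0.14 at 3 or more, Gzmk -0.76 without the highest barcode. Leaving out a liver reversed 6 genes, with ranges of -0.030 (without 23) to 2.09 for Ccl4, -0.10 (without 22) to 1.20 for Ifng, -0.89 to 0.38 (without 23) for Bcl6, -0.77 to 0.29 (without 23) for Gzmb, -0.51 (without 18) to 1.10 for Gzmk and -0.44 to 0.15 (without 23) for Ikzf2. Productive contigs only changed nothing, since all were productive, so in the counts of alternatives it repeats the main fit.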
